A study of Homo sapiens with 6 samples.

Results

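RNA polymerase I is the nuclear enzyme that transcribes the ribosomal DNA repeats in the nucleolus. The mRNA levels of 8 of its subunits and of 2 of its initiation factors were followed in K562 cells deprived of iron. The members were taken by gene name in GENCODE release 44 as POLR1A, POLR1B, POLR1C, POLR1D, POLR1E, POLR1F, POLR1G, POLR1H, RRN3 and UBTF. They are 10 of the 62252 genes whose transcripts were quantified, and they have 112 annotated transcripts. K562 is an erythroid leukemia cell line grown in suspension. The Chelator group received 10 µM 21H7, a cell-permeable iron chelator, overnight, and the DMSO group received the same volume of the solvent, with 3 biological replicates in each group and polyadenylated RNA sequenced from each.

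The enzyme works at a single kind of gene, the tandem repeat that encodes the precursor of the large ribosomal RNAs, and its output sets much of the pace of ribosome production. POLR1A and POLR1B form the catalytic centre, POLR1C and POLR1D form an assembly platform that RNA polymerase III also uses, and 5 small subunits named after RNA polymerase II are common to all 3 nuclear polymerases. UBTF is an HMG-box protein that binds along the rDNA and keeps it open, and RRN3 joins the polymerase to the promoter-bound selectivity factor SL1. None of the values given measures ribosomal RNA, because rRNA carries no poly(A) tail and was not selected.

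Levels are given in TPM, the deposited measure of abundance per transcript length and per library. Each library pools the RNA of many cells, so fewer expressing cells and less RNA of a gene per cell cannot be told apart. Since TPM is a share of a library's RNA, a change in total RNA per cell is not seen. Differences are log2 fold changes of Chelator over DMSO from DESeq2, with their standard error (SE), and unless another tool is named, the adjusted p of a fold change is the Benjamini-Hochberg value of DESeq2's Wald test over all genes. A gene is said to have risen or fallen if its adjusted p was under 0.05, and is said to have passed the full threshold if its absolute log2 fold change was also above 1. The DMSO libraries held 78.6 to 90.4 M estimated counts (M, 1e+06 counts), those of the Chelator group 85.4 to 101.1 M, and every member had at least 1606 counts in every library. TFRC, the transferrin receptor mRNA known to rise at low iron, was at 227, 251 and 290 TPM under DMSO, against 1814, 1976 and 2035 TPM under Chelator. All 7 K562 markers read (GATA1, KLF1, TAL1, HBG1, HBG2, HBE1 and HBZ) were at 42.9 TPM or more in every library, and summed to 12232 to 13574 TPM in the DMSO group and 17329 to 18509 TPM in the Chelator group. KLF1 fell (82.0 to 50.9 TPM on average) and HBE1 rose (2769 to 4824 TPM). Of 6 markers of other cell types, 2 were at 1 TPM or more in every library (EPCAM and PECAM1) and MS4A1 was at 0 in all of them. The summed level of these 6 was 70.8 to 77.6 TPM in the DMSO group and 51.7 to 57.9 TPM in the Chelator group. Most of it was EPCAM, at 65.4 ± 3.27 (SD) and 47.9 ± 2.35 TPM, and PECAM1 was also lower in Chelator (7.28 and 4.22 TPM on average). CD3E (0.12 and 0.476 TPM on average) and COL1A1 (0.589 and 1.83 TPM) were higher in Chelator. The part of these markers in the results was not tested. DMSO replicate 2 stood apart from the other DMSO libraries, with a chi-square per gene of 65.3 and 45.3 against them, where those others gave 8.61 between themselves. Chelator replicate 1 likewise gave 31.2 and 29 against the other Chelator libraries, which gave 6.66 between themselves. The mean fragment length implied by the effective lengths was 253 to 265 bases for DMSO and 201 to 219 bases for Chelator, and its part in the results was not tested.

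Of the 10 members, 8 fell and 1 rose after iron chelation, and RRN3 did not pass the test. Of all 24542 genes with an adjusted p, 18.3% fell and 19.5% rose. POLR1B, POLR1F and POLR1G passed the full threshold downwards, against 2.60% of all genes, and no member passed it upwards, against 8.18% of all genes. The median log2 fold change of the members was -0.44, beside a median of 0.016 over all genes with an adjusted p. The members are well expressed, with mean normalized counts from 2378 to 24322. Of the 7115 genes whose normalized count averaged 2000 or more, a level chosen after the data were seen, 40.4% fell and 23.9% rose, 1.57% passed the full threshold downwards, and the median was -0.108. The TPM values of the groups did not overlap for 9 of the 10 members, against 46.7% of all genes with an adjusted p and 66.6% of the genes at 2000 or more.

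**Figure D1:**
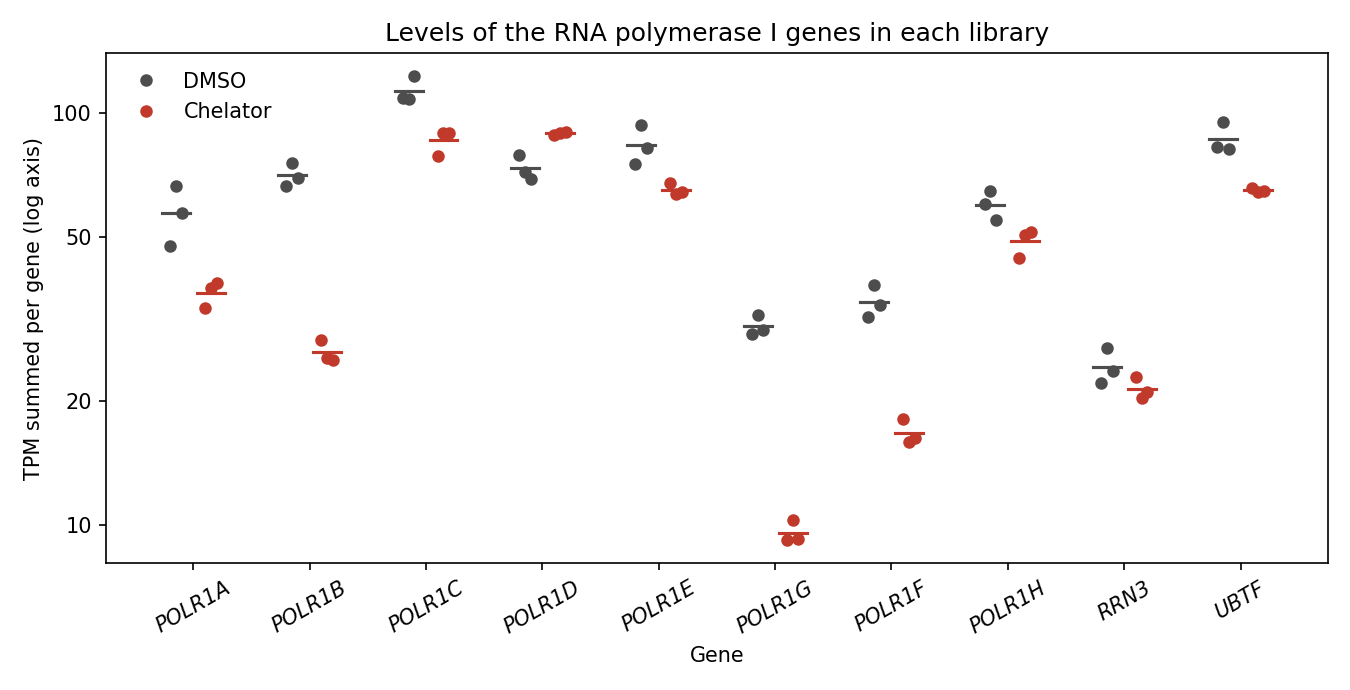
TPM summed per gene (vertical log axis) for the 10 RNA polymerase I genes in the 3 DMSO and the 3 Chelator libraries, with 1 point per library and a short line at the group mean. The groups do not overlap except for RRN3, and POLR1D is the gene whose Chelator points sit above its DMSO points.

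In DMSO the members spanned 4.67-fold in mean level per length, from POLR1C at 113 ± 8.45 TPM (SD, n = 3) to RRN3 at 24.2 ± 2.45 TPM. Short transcript models make up much of some of these sums. POLR1C-203, of 418 bases, held 61.4% of the POLR1C TPM in DMSO on 652 to 942 estimated counts per library. POLR1C-210, with 346 codons, was at 31.7 to 35.4 TPM there. POLR1B-208, of 555 bases, held 41.2% of the POLR1B TPM in DMSO. The order of the DMSO means was POLR1C, UBTF, POLR1E, POLR1D, POLR1B, POLR1H, POLR1A, POLR1F, POLR1G and RRN3. Library values overlapped in 5 of the 9 neighbouring pairs, namely along the run from UBTF to POLR1B, between POLR1H and POLR1A, and between POLR1F and POLR1G. In the Chelator libraries the span was 9.32-fold, from POLR1D at 89.3 ± 0.777 TPM to POLR1G at 9.58 ± 0.589 TPM, and 2 neighbouring pairs overlapped. POLR1B moved from the 5th to the 7th place, and RRN3 from the 10th to the 8th.

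The largest catalytic subunits both fell. POLR1A (chr2:86020216-86106155 on GRCh38, minus strand), the largest subunit of the catalytic centre, was at 47.7, 66.5 and 57.2 TPM in DMSO and at 33.7, 37.7 and 38.7 TPM in Chelator. The groups did not overlap, and DMSO replicate 2 was the highest. Its log2 fold change was -0.66 ± 0.0843 (SE), a level of 0.633 times that in DMSO (DESeq2 adjusted p = 7.89e-14).

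POLR1B (chr2:112541915-112579818, plus strand), which completes the active site with POLR1A, was at 66.7, 75.9 and 69.7 TPM in DMSO and at 28.2, 25.4 and 25.2 TPM in Chelator. Every Chelator library was far below every DMSO library. The log2 fold change was -1.45 ± 0.0835 (SE), a level of 0.365 times that in DMSO (DESeq2 adjusted p = 1.02e-65). The 95% intervals of POLR1B (-1.62 to -1.29) and POLR1A (-0.83 to -0.50) did not overlap, although the difference between these genes was not itself tested. POLR1B passed the full threshold in all 19 alternative settings.

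The change of POLR1A depended on how its transcripts were handled. POLR1A-210, a 546-base transcript with no annotated coding sequence, had 0, 0 and 91 estimated counts under DMSO, against 148, 235 and 259 under Chelator. These few reads made up 0, 0 and 7.55% of the TPM of the gene in the DMSO libraries, and 15.5%, 19.9% and 24.8% in those of the Chelator group. The average transcript length used as the offset of POLR1A was 6896 to 8316 bases in DMSO and 5499 to 6604 bases in Chelator. With no length offset POLR1A changed by -1.03 on the log2 scale, past the full threshold, and with protein_coding transcripts alone it was -0.95. The full-length POLR1A-201, which encodes 1720 codons, had 18717, 24153 and 17208 estimated counts in DMSO and 11277, 11599 and 9347 in Chelator. These full-length counts did not overlap between the groups.

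The pair shared with RNA polymerase III moved in opposite directions, although the rise of POLR1D was lost in some settings. POLR1C (chr6:43509702-43562419, plus strand), a subunit that resembles the bacterial alpha subunit, was at 109, 108 and 123 TPM in DMSO and at 78.9, 89.4 and 89.7 TPM in Chelator. The groups did not overlap, and the log2 fold change was -0.43 ± 0.106 (SE, DESeq2 adjusted p = 2.25e-04). Without the length offset it was -0.28 (DESeq2 adjusted p = 3.32e-03). Of the 31-base words in the POLR1C transcripts, 20.6% also occur in transcripts of other genes, read on either strand.

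POLR1D (chr13:27620742-27744237, plus strand), the partner of POLR1C in this platform, was at 79.0, 72.1 and 69.3 TPM in DMSO and at 88.4, 89.6 and 89.9 TPM in Chelator. It was the one member with every Chelator library above every DMSO library. The rise was small, at 0.25 ± 0.0989 (SE) on the log2 scale (DESeq2 adjusted p = 0.0363). It lost the threshold in 7 of 19 alternative settings, among them each leave-one-out fit except the fit without DMSO replicate 1. The log2 fold change was 0.16 without DMSO replicate 2 (DESeq2 adjusted p = 0.161). It was 0.08 with centring on the mean log2 change (DESeq2 adjusted p = 0.603). With GC content and length trends removed it was 0.17 (DESeq2 adjusted p = 0.135). The same gene encodes more than one protein: POLR1D-201, with 133 codons, held 63.9% ± 1.98 (SD) of its TPM in DMSO and 69.3% ± 0.491 in Chelator, and POLR1D-203, with 122 codons, held 21.4% ± 1.17 and 17.9% ± 0.604. This shift did not pass the test of transcript usage in edgeR (Simes adjusted p = 1.0) and passed it in limma (Simes adjusted p = 0.0204).

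POLR1E and POLR1G form a dimer that sits on the outside of the enzyme and has been linked to initiation. POLR1E (chr9:37485948-37503697, plus strand) was at 75.5, 93.5 and 82.5 TPM in DMSO and at 67.7, 63.7 and 64.3 TPM in Chelator. The groups did not overlap, and the log2 fold change was -0.39 ± 0.0748 (SE, DESeq2 adjusted p = 1.65e-06). Nearly all of its TPM, 99.2% in DMSO and 99.3% in Chelator, belonged to POLR1E-202, so its change is that of 1 transcript.

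POLR1G had the largest fall of the 10 members. This gene (chr19:45406644-45410737, plus strand) was at 29.1, 32.3 and 29.8 TPM in DMSO and at 9.21, 10.3 and 9.28 TPM in Chelator. The 3 Chelator libraries lay close together, at less than the lowest DMSO value by a wide margin. The log2 fold change was -1.69 ± 0.0787 (SE), a level of 0.309 times that in DMSO (DESeq2 adjusted p = 2.24e-100), and it stayed between -1.86 and -1.28 in the 19 alternative settings, past the full threshold in each. POLR1G-201 held 68.2% ± 1.65 (SD) of its TPM in DMSO and 68.5% ± 2.25 in Chelator, so the fall ran through the gene's transcripts in like proportion.

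POLR1G lies tail to tail with ERCC1, a DNA repair gene on the opposite strand, and 1593 exonic bases (49.8% of the exonic bases of POLR1G) lie under ERCC1 exons. Of the 31-base words of POLR1G, 58.4% occur in other genes' transcripts on either strand. The strand of the libraries is not given in the sources used here, so reads of this stretch could belong to either gene. ERCC1 was at 29.5, 36.2 and 31.5 TPM in DMSO and at 67.8, 69.3 and 68.2 TPM in Chelator, higher by 1.05 ± 0.0678 (SE) on the log2 scale (DESeq2 adjusted p = 1.53e-52). The neighbouring pair thus changed in opposite directions.

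**Figure D2:**
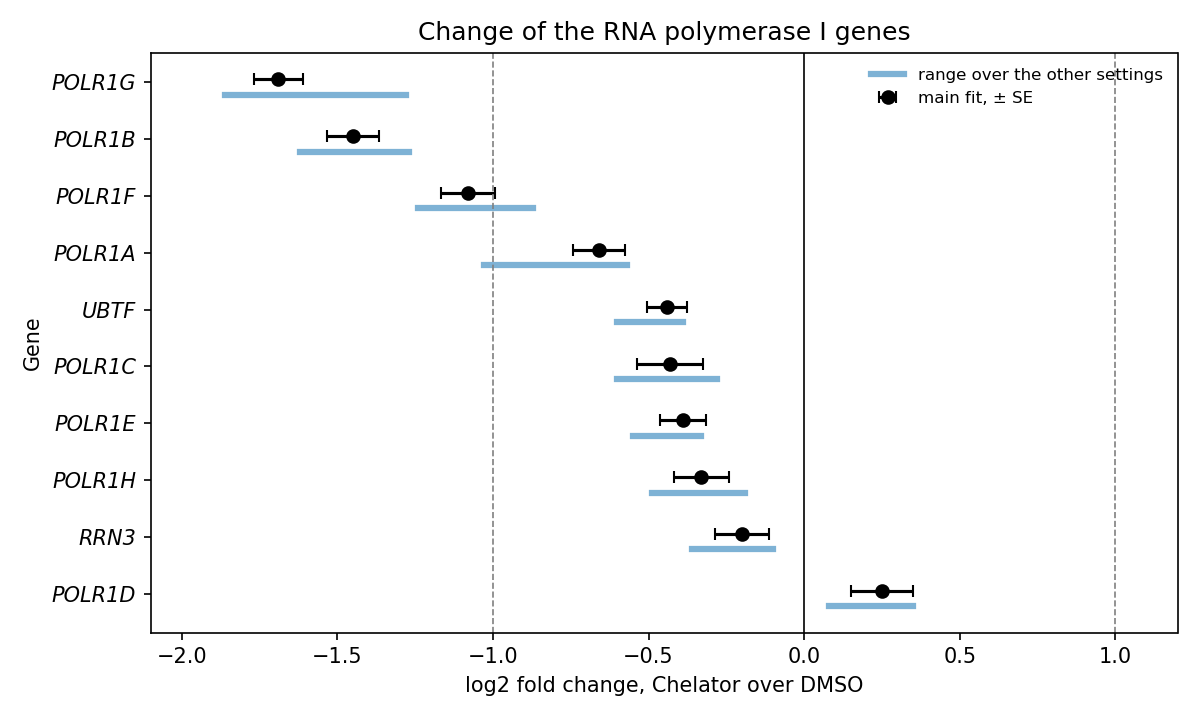
Log2 fold change of Chelator over DMSO (horizontal axis) for the 10 RNA polymerase I genes, ordered by size, with black points and bars for the DESeq2 value ± SE and blue bars for the range over the alternative settings. Dashed lines mark a log2 fold change of -1 and of 1. POLR1G and POLR1B lie beyond -1 over their whole range, and the ranges of POLR1F and POLR1A cross that line.

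POLR1F, the stalk subunit that docks RRN3 on the polymerase, also fell past the full threshold. The gene (chr7:19695461-19709037, minus strand) was at 32.0, 38.4 and 34.2 TPM in DMSO and at 18.1, 15.9 and 16.3 TPM in Chelator. The groups were well apart, and the log2 fold change was -1.08 ± 0.0868 (SE, DESeq2 adjusted p = 1.37e-33). With the trends of each library with GC content and transcript length removed, the log2 fold change was -0.89, and with limma on log2(TPM + 5) it was -0.87. In both settings POLR1F stayed significantly lower but no longer passed the full threshold. POLR1F has the lowest GC content (37.0%) of the 10 members, and POLR1F-201 held 98.6% of its TPM in DMSO and 99.2% in Chelator.

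POLR1H (chr6:30058899-30064909, plus strand), the small zinc-ribbon subunit that supports cleavage of the nascent RNA, was at 60.2, 64.6 and 55.2 TPM in DMSO and at 44.6, 50.6 and 51.5 TPM in Chelator. The groups did not overlap, with the lowest DMSO library not far above the highest Chelator library. The log2 fold change was -0.33 ± 0.0898 (SE, DESeq2 adjusted p = 1.21e-03). Without the length offset it was -0.19 with an adjusted p of 0.0749, and in limma with no filter on low values the adjusted p was 0.0619. Antisense exons of POLR1HASP cover 24.5% of the exonic bases of POLR1H, and POLR1HASP, at 3.72 to 5.27 TPM over the 6 libraries, did not pass the test (log2 fold change 0.17 ± 0.112 SE, DESeq2 adjusted p = 0.235).

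Of the initiation factors, UBTF fell and RRN3 did not pass the test. RRN3 (chr16:15060033-15094311, minus strand), which links growth signals to initiation, was at 22.1, 26.9 and 23.7 TPM in DMSO and at 22.9, 20.4 and 21.1 TPM in Chelator. It was the one member whose groups overlapped in TPM, although its normalized counts did not overlap. The log2 fold change was -0.20 ± 0.0856 (SE), with a 95% interval of -0.36 to -0.03 and an adjusted p of 0.0579 in DESeq2. RRN3 passed the test in 4 of 20 alternative settings, with an adjusted p of 1.70e-03 without Chelator replicate 1. RRN3 has pseudogene copies, and 30.4% of its 31-base words occur in other genes. RRN3P3, the copy with the most reads, was at 2.15 to 3.0 TPM over the 6 libraries, RRN3P2 was at 0.138 TPM or less, and RRN3P1 and RRN3P4 were listed at 0 in every library. With these copies summed into RRN3, its log2 fold change was -0.19 (DESeq2 adjusted p = 0.0544).

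UBTF (chr17:44205033-44221626, minus strand) was at 82.6, 95 and 82.1 TPM in DMSO and at 66.0, 64.3 and 64.6 TPM in Chelator. The groups did not overlap, and the Chelator libraries were within a narrow range. The log2 fold change was -0.44 ± 0.0648 (SE, DESeq2 adjusted p = 1.29e-10), and it stayed between -0.60 and -0.39 in the 19 alternative settings.

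UBTF is made in a long and a short form that differ by an in-frame exon within the second HMG box, and the short form is known to be the weaker activator of RNA polymerase I. The exon is at chr17:44212344-44212454 (GRCh38, minus strand), spans 37 codons, and is exon 7 of UBTF-209. It is shown here, 5′ to 3′ on the coding strand, because the exon share below rests on it.
UBTF exon: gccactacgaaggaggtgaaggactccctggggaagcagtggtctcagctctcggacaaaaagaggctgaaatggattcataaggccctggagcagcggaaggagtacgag

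UBTF was the one member of 9 tested whose transcript usage changed in edgeR (Simes adjusted p = 4.87e-03), where 9.22% of the 11938 genes tested were called. POLR1F had too few expressed transcripts for the test. UBTF-209, which holds the exon and encodes 764 codons, was at 13.1, 18.2 and 15.9 TPM in DMSO and at 5.36, 6.70 and 3.97 TPM in Chelator. All 3 Chelator libraries were below all DMSO libraries, and its share of UBTF TPM went from 18.2% ± 1.97 (SD) to 8.23% ± 2.14 (transcript-level adjusted p = 1.91e-03, edgeR). UBTF-202, with 727 codons and without the exon, held 23.8% ± 1.90 and 24.2% ± 1.99. The gene-level call was lost without DMSO replicate 3 (Simes adjusted p = 0.083) and without Chelator replicate 3 (Simes adjusted p = 0.138, edgeR).

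The share of UBTF TPM from the 5 transcripts with the exon, against the 7 that join its flanking exons, was 36%, 38.5% and 34.5% in DMSO and 26.9%, 31.3% and 29.1% in Chelator. The groups did not overlap, and the mean went from 36.3% ± 2.0 (SD, n = 3) to 29.1% ± 2.19, a difference of -7.21 percentage points (exact two-sided permutation test, p = 0.10, the smallest this design allows). Without UBTF-209, an alternative chosen after the data were seen, the share was 20.3% ± 3.06 in DMSO and 21.7% ± 2.07 in Chelator, a difference of 1.40 points in the other direction. The lower exon share therefore rests on this 1 transcript model. UBTF-209 differs from the other exon-holding transcripts also in its first exon, at chr17:44218172-44218502, so reads outside the 37-codon exon can decide its level.

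**Figure D3:**
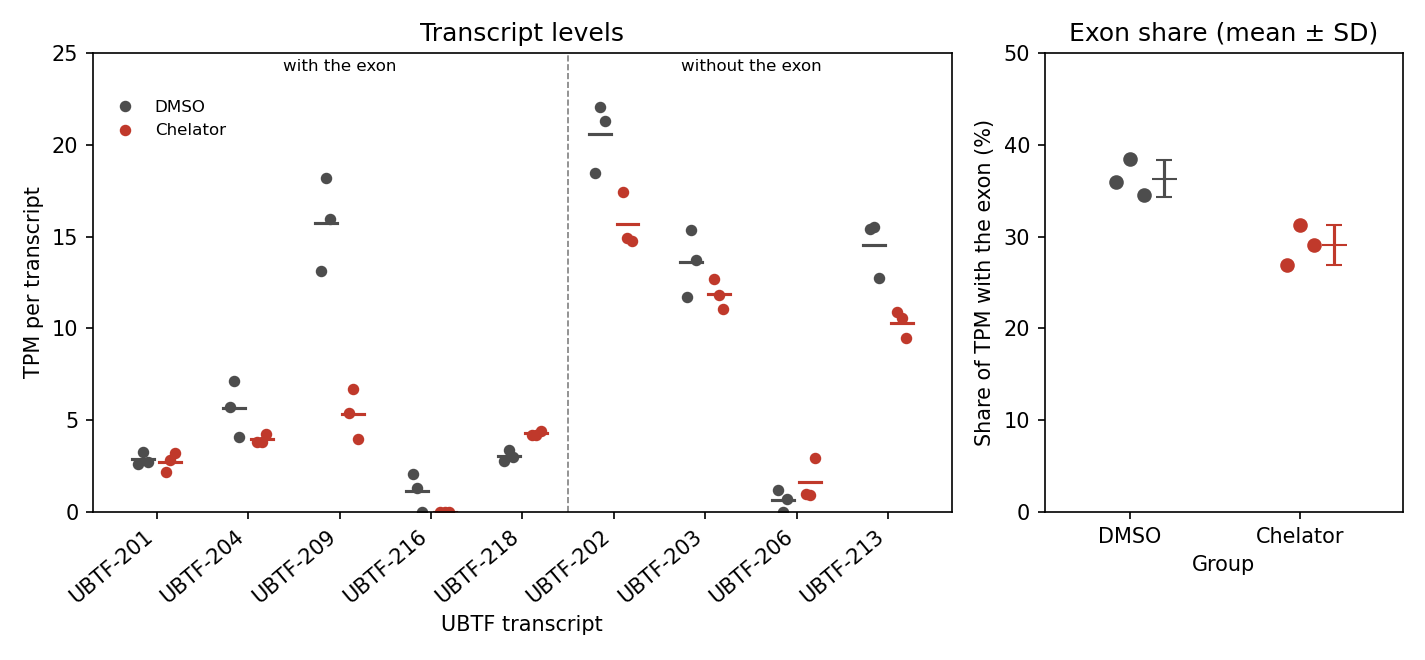
UBTF transcripts in each library: left, TPM of each transcript with a mean of at least 0.5 TPM, with and without the 37-codon exon, with a short line at the group mean; right, share of TPM from transcripts with the exon, with the mean ± SD of 3 libraries. UBTF-209 falls from 13.1 to 18.2 TPM in DMSO to 3.97 to 6.70 TPM in Chelator, and the share falls from 36.3% to 29.1%.

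No other member passed the usage test in edgeR. For POLR1A the largest share change was 17.5 points, that of POLR1A-210, with an Simes adjusted p of 0.126 in edgeR, and this became 1.08e-05 without DMSO replicate 3, the only DMSO library with reads on that transcript. In POLR1B, transcripts annotated for nonsense-mediated decay held 10.0%, 12.5% and 11.0% of TPM in DMSO and 12.7%, 19.6% and 27.3% in Chelator. The decay-annotated shares did not overlap between the groups but spread widely in Chelator. The gene did not pass the usage test (edgeR Simes adjusted p = 1.0, and 0.0496 without Chelator replicate 3). For POLR1C the edgeR Simes adjusted p was 1.0, and 0.0114 without Chelator replicate 1, with no share change above 5 points in either fit. The coding transcript POLR1B-204, with 1079 codons, was at 12.7, 14.9 and 14.4 TPM in DMSO and at 6.03, 5.38 and 5.04 TPM in Chelator.

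The companion genes of the enzyme were read from lists by role, and their counts stand beside the 18.3% of all genes, and 40.4% of those at 2000 or more normalized counts, that fell. In the same order, 19.5% and 23.9% rose, and 2.60% and 1.57% passed the full threshold downwards. Of the 5 subunits shared by all 3 nuclear polymerases, POLR2H fell (log2 fold change -0.30 ± 0.0772 SE, DESeq2 adjusted p = 4.58e-04) and POLR2L rose (0.83 ± 0.119 SE, DESeq2 adjusted p = 4.88e-11). Without the length offset POLR2H was at -0.15 with an adjusted p of 0.172. POLR2L, a small zinc-binding subunit, was at 70.7 to 86.0 TPM in DMSO and at 129 to 153 TPM in Chelator, but with protein_coding transcripts alone its log2 fold change was 0.28 with an adjusted p of 0.0644. POLR2E, POLR2F and POLR2K did not pass, with log2 fold changes of -0.02, -0.14 and -0.11. The median of the 5 was -0.11.

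Of the 7 genes of SL1 and of rDNA termination and release, 3 fell and 1 rose, with a median log2 fold change of -0.01, a share of falls near that of the better-expressed genes. TAF1A, an SL1 subunit, had the largest fall, from 17.4, 19.9 and 16.1 TPM to 10.5, 12.3 and 10.8 TPM (log2 fold change -0.70 ± 0.102 SE, DESeq2 adjusted p = 1.21e-10). TAF1C, another SL1 subunit, had the largest rise (0.34 ± 0.116 SE, DESeq2 adjusted p = 0.0105), which lost the threshold in 7 of 19 settings, among them without DMSO replicate 2, Chelator replicate 2 or Chelator replicate 3 (DESeq2 adjusted p = 0.0812, 0.0967 and 0.13). Of the 12 nucleolar and chromatin regulators of rDNA, 7 fell and 4 rose, with a median of -0.46. NCL, the nucleolar protein nucleolin, had the largest fall, from 737, 843 and 747 TPM to 466, 431 and 432 TPM (-0.83 ± 0.0719 SE, DESeq2 adjusted p = 2.16e-29), and KAT2B, an acetyltransferase, the largest rise (0.43 ± 0.101 SE, DESeq2 adjusted p = 1.10e-04), with an adjusted p of 0.0916 in limma with no filter.

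The other nuclear polymerases were counted in the same way. Of the 7 subunits of RNA polymerase II alone, 1 fell and 3 rose, none past the full threshold, and the median log2 fold change was 0.02. POLR2I had the largest fall (-0.42 ± 0.103 SE, DESeq2 adjusted p = 2.25e-04), which was -0.15 without the length offset (adjusted p = 0.273), and POLR2G, of the RNA polymerase II stalk, the largest rise (0.68 ± 0.0939 SE, DESeq2 adjusted p = 6.03e-12). Of 9 subunits of RNA polymerase III alone, 4 fell and 1 rose, 1 passed the full threshold downwards, and the median was -0.21. This share of falls is near that of the better-expressed genes. POLR3G, one of a pair of paralogs, had the largest fall, from 41.5, 43.2 and 41.3 TPM in DMSO to 19.5, 18.2 and 20 TPM in Chelator (-1.16 ± 0.0919 SE, DESeq2 adjusted p = 1.12e-34), and was at -0.96 with limma on log2(TPM + 5). Its paralog POLR3GL had the largest rise (0.31 ± 0.0854 SE, DESeq2 adjusted p = 9.88e-04), which was 0.15 with centring on the mean log2 change (adjusted p = 0.21). Of the 11 initiation factors of RNA polymerase III and its repressor MAF1, 7 fell and 1 rose, with a median of -0.29, the largest fall in GTF3C4 (-0.77) and the rise in BRF2 (0.92 ± 0.116 SE, DESeq2 adjusted p = 3.52e-14). These lists are given as counts, and no difference between the lists was tested.

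**Figure D4:**
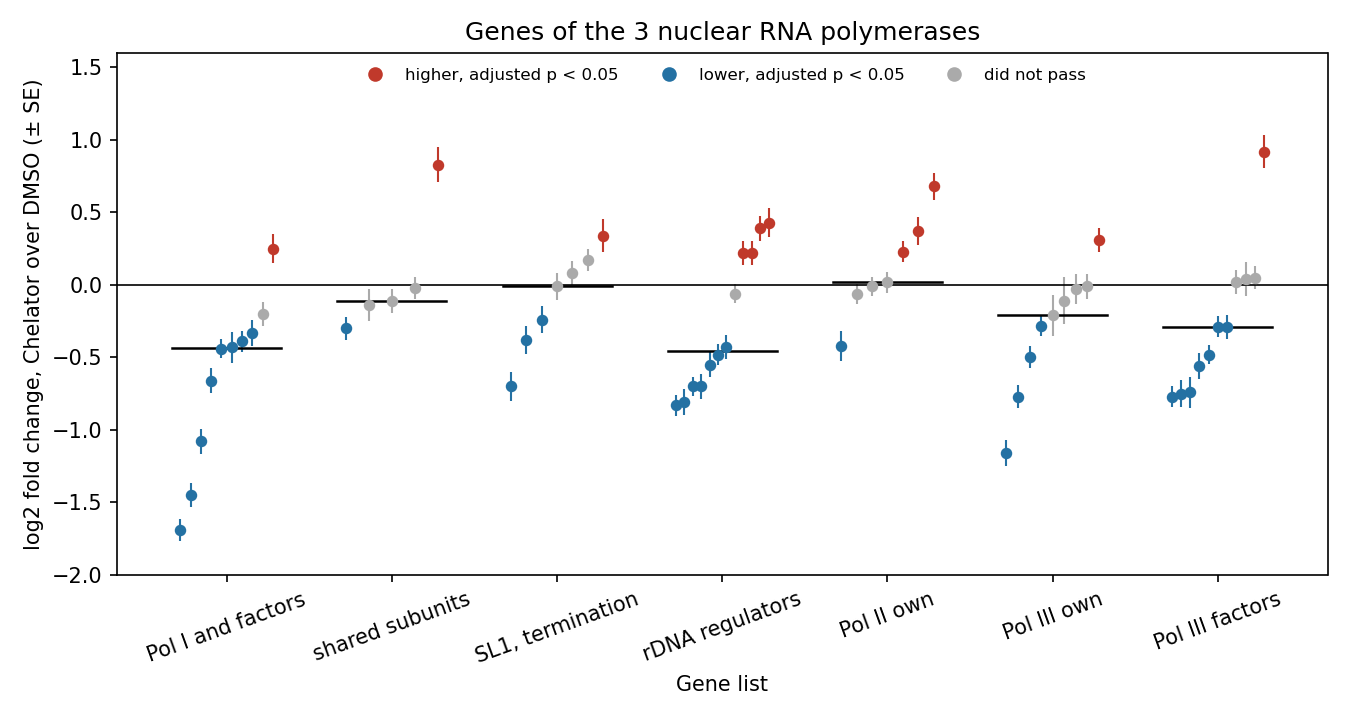
Log2 fold change of Chelator over DMSO ± SE (vertical axis) for each gene of the RNA polymerase I list and of 6 companion lists (horizontal axis), with blue for genes that fell, red for genes that rose and grey for those that did not pass, and a line at each list's median. The medians run from -0.46 for the rDNA regulators and -0.44 for RNA polymerase I to 0.02 for RNA polymerase II.

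Transcript length moved with the change among better-expressed genes (2000 normalized counts or more). The 603 whose transcripts averaged under 1000 bases had a median log2 change of 0.13, and 23.5% of them fell. The 2631 with 3000 bases or more had a median of -0.20, and 48.9% of them fell. POLR1C and POLR1H, at 763 and 788 bases on average, fell and belong to the shortest class, and POLR1D, at 1017 bases, rose. POLR1B, POLR1G and POLR1F averaged 2347, 2412 and 3850 bases, where 1.74% (2000 to 3000 bases) and 2.39% (3000 bases or more) of genes passed the full threshold downwards. With GC content and length trends removed, POLR1B and POLR1G had log2 fold changes of -1.47 and -1.80, and POLR1F, at -0.89, no longer passed the full threshold. In that setting POLR1D, at 0.17, did not pass the test (DESeq2 adjusted p = 0.135).

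The promoters of the members were searched on both strands for CACGTG, the E-box bound by MYC and related factors, and for CCGGAAG, a motif of ETS factors, in RefSeq windows of 250 bases before to 50 bases after the start on GRCh38. Of the 10 members, 9 had such a window, 13 windows in all. An E-box was present in 1 of the 13 windows, that of POLR1G, with its first base 12 bases before the start, against 7.26% of all 35116 promoter windows. ETS motifs were present in 5 of the 13 windows, which belong to POLR1B, POLR1C and RRN3, against 10.26% of all windows. The windows of RRN3 overlap and hold the same ETS match. The stretches before the starts of POLR1G and POLR1F, the members with the largest fall and with the called fall nearest the threshold, are shown for comparison, with the E-box in capitals.
POLR1G, chr19:45406394-45406643, plus strand: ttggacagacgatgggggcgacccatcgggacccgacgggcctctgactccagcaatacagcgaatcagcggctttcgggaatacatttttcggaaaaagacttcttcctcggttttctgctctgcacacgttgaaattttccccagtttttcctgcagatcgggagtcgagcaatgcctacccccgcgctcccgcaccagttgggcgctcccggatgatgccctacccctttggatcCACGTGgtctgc
POLR1F, chr7:19709038-19709287, minus strand: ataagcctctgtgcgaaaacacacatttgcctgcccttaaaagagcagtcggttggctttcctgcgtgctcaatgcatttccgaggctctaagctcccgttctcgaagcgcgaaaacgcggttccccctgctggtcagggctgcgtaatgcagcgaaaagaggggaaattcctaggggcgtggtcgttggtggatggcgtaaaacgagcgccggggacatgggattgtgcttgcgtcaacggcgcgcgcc
The POLR1F stretch holds neither motif. A match describes the letters in the window and not the binding of a factor.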

How the data were processed

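The authors quantified polyadenylated RNA with Salmon 1.10.2 (per the submitters' notes, build hg38) and deposited, per library, the estimated counts and TPM values of 252045 transcripts. The annotation and strand setting are not given in the sources used here. Transcripts were matched to GENCODE release 44 (433 had no match), and estimated counts were summed per gene and rounded. DESeq2 1.42.0 (R 4.3.3) compared Chelator with DMSO over the 26074 genes with a total above 10, with median-ratio size factors and each gene's average transcript length per library as offset. The Wald test and the count filter follow the authors' methods, which do not mention a length offset. Transcript usage was tested with edgeR 4.0.16 diffSpliceDGE over transcripts with at least 10 counts in 3 libraries, called at an Simes adjusted p under 0.05 with a share change above 5 percentage points. limma 3.58.1 was run on log2(TPM + 1). Scripts were tested on simulated data. Within-group library pairs differed beyond sampling noise, so each was counted as its own sample. Every member had at least 1606 counts per library.

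All 10 members are named. Of each companion list, the largest rise and the largest fall among genes averaging 100 normalized counts or more are named, with all 5 shared subunits. Some listed genes are not reported here and were left out of the lists' counts and medians. The POLR1B transcript classes were singled out after their values were seen. The members and lists were chosen with earlier results of these data known.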

Additional observations from a re-analysis of the deposited data

How the results depend on the processing

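The 3 members past the full threshold, and the direction of all 10 members, held under edgeR, TMM size factors, mean centring, the count filters, the length offset, the GC and length trends, limma, the replicate block and every leave-one-out fit, except that POLR1F passed the full threshold in 17 of 19 settings and POLR1A joined without the length offset. Members with an adjusted p under 0.05 numbered 8 to 10 over these settings. The median log2 fold change of the members was -0.39 with edgeR and with TMM size factors, -0.60 with centring on the mean log2 change (which moved the median of all genes to -0.151), -0.51 with GC and length trends removed and -0.38 with limma on log2(TPM + 5), and ran from -0.50 to -0.40 over the leave-one-out fits. Genes called numbered 2646, and 789, 1220 and 314 with limma on log2(TPM + 1), log2(TPM + 0.1) and log2(TPM + 5), and 783 with no filter. Usage calls numbered 1101, 3184 with limma, and 539 (without Chelator replicate 3) to 1063 over the leave-one-out fits, with 592 without Chelator replicate 2. The UBTF exon share differed by -5.03 points by estimated counts and by 1.40 without UBTF-209. Why these values moved was not tested. Libraries of the same replicate number deviated together weakly or not at all (r = -0.004, 0.125 and 0.094 across genes). Those of unlike numbers gave r from -0.124 to 0.046. With the replicate number as a block, 2345 genes, 923 usage genes and the same number of members (9) passed, with a median of -0.43.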
